A study of Mus musculus with 4 samples.

Results

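The thrombospondins are secreted, calcium-binding glycoproteins of the extracellular matrix. Thbs1 and Thbs2 form trimers, and Thbs3, Thbs4 and Comp (cartilage oligomeric matrix protein) form pentamers. Thbs1 can activate latent TGF-beta and binds the receptors Cd36 and Cd47, and complexes of Thbs1 or Thbs2 with proteases are cleared by Lrp1. Comp and Thbs4 are matrix proteins of cartilage and tendon, and Comp is also made in the vessel wall, where it binds collagens and matrilins. All 5 mouse genes of the family were taken by name, with no use of measured values, and all 5 are among the 32285 genes listed for each AngII library and the 18760 listed for the baseline library.

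The cells came from the aorta of male Mef2c-mTmG mice, and the study asked how cells of different embryonic origin respond to infused angiotensin II (AngII), the pressor peptide of the renin-angiotensin system. In mTmG mice, recombination by Cre switches a membrane fluorophore from red to green, and live cells were sorted by lineage before capture on the 10x Chromium 3' v3 system. The libraries used were SHF baseline (labelled as baseline, 9412 cell barcodes), SHF AngII (3 days of infusion, 11166 barcodes) and CNC AngII (3 days, 11098 barcodes), where SHF is the second heart field and CNC is left as the labels write it. CNC baseline was not analysed here. The age of the mice, the number of mice in a library, the dose of AngII and the Cre driver beyond the strain name are not given in the sources used here. With 1 library per group, differences below have no replicate check, and neither a test nor a p-value is given. Intervals are at 95% and cover counting error only, and not the spread between mice or preparations.

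After filtering, 8374, 9299 and 10194 cells remained in SHF baseline, SHF AngII and CNC AngII. Cells were put into 3 classes by their UMIs (unique molecular identifiers, each standing for 1 captured transcript). The smooth muscle class (Myh11 of at least 5 and Pdgfra of 0) held 2259, 4649 and 6385 cells, and the fibroblast class (Pdgfra of at least 1 and Myh11 of at most 2) held 3939, 2640 and 842. The macrophage class (C1qa, C1qb and Lyz2 together at 10 or more and Myh11 below 5) held 8, 13 and 1764 cells, so only that of CNC AngII is described. The fibroblast gene Dcn, which no gate used, stood at 15528, 5757 and 4662 CPM in the fibroblast class against 311, 174 and 20.3 CPM in the smooth muscle class. CPM is the UMIs of a gene per 1e+06 UMIs of the same cells. Median depth was 12441, 13336 and 13450 UMIs per smooth muscle cell but 9534, 15485.5 and 12379.5 per fibroblast, and pairs of libraries shared 29 to 34 cell barcodes.

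In GENCODE M21 on mm10, Thbs1 lies at chr2:118111876-118127133 on the plus strand, Thbs2 at chr17:14665500-14694235 on the minus strand and Thbs3 at chr3:89215180-89226837 on the plus strand. Thbs4 lies at chr13:92751590-92794818 on the minus strand and Comp at chr8:70373558-70382066 on the plus strand. None of the 5 shares exon sequence with another gene of the same strand. On the opposite strand, exons of Gm29233 overlap those of Thbs1 and exons of Mtx1 overlap those of Thbs3, and whether the authors counted by strand is not given in the sources used here. A 3' library carries 1 tag per transcript, so levels of different members were compared without scaling to length, although members can still differ in how well they are captured.

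The RefSeq promoter table for GRCm38.p6 held 3 of the 5 members: Thbs2 and Thbs3, the members found in many cells at low levels, and Thbs4, the rarest. The 250 bases before each start are shown 5′ to 3′ on the gene's strand, with matches to the motifs named below in capitals, to set the letters of the 2 broadly detected genes beside those of the rare one.
Thbs2, chr17:14694263-14694512, minus strand: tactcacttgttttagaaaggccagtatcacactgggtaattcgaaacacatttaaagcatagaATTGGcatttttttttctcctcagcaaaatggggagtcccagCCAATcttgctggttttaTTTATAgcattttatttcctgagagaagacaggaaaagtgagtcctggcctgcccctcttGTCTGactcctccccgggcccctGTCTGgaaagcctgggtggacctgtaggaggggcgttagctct
Thbs3, chr3:89214930-89215179, plus strand: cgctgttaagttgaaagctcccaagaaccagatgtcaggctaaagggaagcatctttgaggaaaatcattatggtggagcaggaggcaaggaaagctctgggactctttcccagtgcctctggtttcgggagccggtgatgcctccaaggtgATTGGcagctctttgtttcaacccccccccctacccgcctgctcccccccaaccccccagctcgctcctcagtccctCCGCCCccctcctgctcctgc
Thbs4, chr13:92794819-92795068, minus strand: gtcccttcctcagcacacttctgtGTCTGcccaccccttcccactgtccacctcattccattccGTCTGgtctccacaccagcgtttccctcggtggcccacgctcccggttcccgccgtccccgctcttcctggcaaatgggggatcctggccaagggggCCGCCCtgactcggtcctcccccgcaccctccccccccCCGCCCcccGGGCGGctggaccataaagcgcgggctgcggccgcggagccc

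Motifs were searched on both strands. The TATA box (TATAAA or TATATA) matched 1 time in Thbs2 and 0 times in the others, against 15.6% of the 32851 promoters of the table. The Thbs2 match lies on the strand opposite the gene, at position -126, and no strand or place was required of a match. The CCAAT box (CCAAT) matched 2 times in Thbs2, 1 time in Thbs3 and 0 times in Thbs4 (33.8% of promoters have it), and the GC box (GGGCGG) 0, 1 and 3 times (32.7%). The short SMAD element (CAGAC) matched 2 times in Thbs2, 0 times in Thbs3 and 2 times in Thbs4, and 42.2% of promoters have it. Neither the AP-1 site (TGANTCA, 6.75%) nor the CArG box (1.47%) had a match in the 3 windows. No match overlapped another. GC content was 46.8% in Thbs2, 58.8% in Thbs3 and 70.8% in Thbs4, with a median of 52.4% over the table. A match is a description of the letters and shows no binding.

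Fibroblasts held more of every member than smooth muscle cells of the same library. Thbs1 stood at 147, 249.6 and 216 CPM in fibroblasts of SHF baseline, SHF AngII and CNC AngII, against 52.1, 88.9 and 61.8 CPM in smooth muscle. The log2 ratio of fibroblasts over smooth muscle, with 1 CPM added to both levels, was 1.48, 1.48 and 1.79 for Thbs1. It was 1.40, 1.56 and 1.72 for Thbs2, 1.75, 1.17 and 1.13 for Thbs3 and 3.66, 2.52 and 4.58 for Comp. Thbs4 was nearly absent from smooth muscle. Beside these, 13.9% of all genes compared at baseline were past 2-fold higher in fibroblasts, 12.8% in SHF AngII and 12.1% in CNC AngII, among genes with a mean of at least 10 CPM. Thbs4 in both AngII libraries, and Comp in CNC AngII, reached that minimum only through the fibroblasts.

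**Figure D1:**
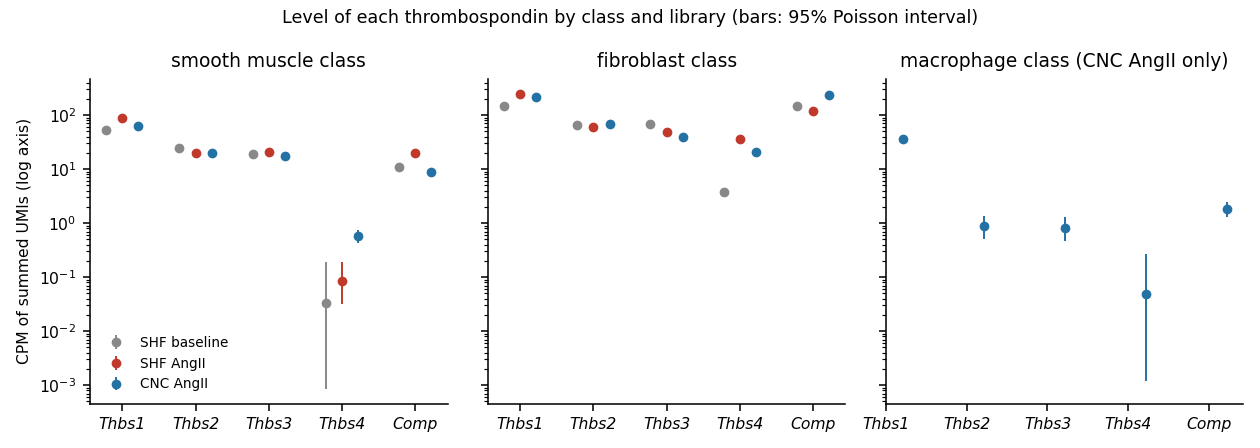
Level of each member in CPM (log axis) by class and library, with 95% Poisson intervals of the summed UMIs that cover counting error only. Every member is higher in the fibroblast panel than in the smooth muscle panel, Thbs4 in smooth muscle rests on 1, 6 and 55 UMIs, and in macrophages Thbs1 is the member with a level above 2 CPM.

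The makeup of the family differed between classes. Thbs1 made up 48.8%, 59.8% and 56.6% of all thrombospondin UMIs in smooth muscle of SHF baseline, SHF AngII and CNC AngII. In fibroblasts it made up 33.8%, 48.9% and 37.0%, and Comp 34.6%, 22.9% and 40.8%. Comp was the leading member, by a small margin, in fibroblasts of SHF baseline and CNC AngII, and Thbs1 led in every other combination of the 2 classes and the libraries. In macrophages of CNC AngII, 91.1% of the family's UMIs were Thbs1, at 36.5 CPM (interval 34.0 to 39.2, 759 UMIs). A Thbs1 UMI was found in 11.3% of these macrophages, and the richest 18 cells held 39.8% of the Thbs1 UMIs. Thbs2 stood at 0.867 CPM there, Thbs3 at 0.818, Comp at 1.83, and Thbs4 had 1 UMI. As a comparison for shares of cells, 0.850% of 1764 macrophages had a Thbs2 UMI, 0.850% a Thbs3 UMI and 1.25% a Comp UMI, against 24.3%, 22.4% and 6.41% of smooth muscle cells of the same library. Whether these UMIs are free RNA was not tested, and no class is known to lack Thbs1.

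Thbs1, the activator of latent TGF-beta, differed from baseline in both large classes. Its level in smooth muscle was 52.1 CPM in SHF baseline (interval 49.5 to 54.8, 1540 UMIs) and 88.9 CPM in SHF AngII (86.7 to 91.1, 6175 UMIs), a log2 ratio of 0.76 (0.69 to 0.85). In fibroblasts it was 147 CPM (143 to 151, 5560 UMIs) against 249.6 CPM (245 to 254, 11207 UMIs), also a log2 ratio of 0.76 (0.72 to 0.81). Both classes thus had a higher Thbs1 level in SHF AngII, by 1.71-fold and 1.70-fold, and neither was past 2-fold. Past 2-fold higher in this comparison were 2.86% of 7000 genes in smooth muscle and 4.64% of 7693 in fibroblasts, and past 2-fold lower 3.53% and 10.7%. TMM scaling, which raises every log2 ratio of this comparison by 0.18 in smooth muscle and 0.28 in fibroblasts, gave 4.34% and 7.86% higher and 2.24% and 5.54% lower.

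More cells held Thbs1 in SHF AngII. A Thbs1 UMI was found in 11.9% of smooth muscle cells at baseline (10.6 to 13.3%), in 23.5% of SHF AngII (22.3 to 24.8%) and in 18.0% of CNC AngII (17.0 to 18.9%). Among fibroblasts the shares were 16.02% (14.9 to 17.2%), 44.1% (42.2 to 46.1%) and 37.1% (33.8 to 40.4%). With each cell thinned to 2000 UMIs, the shares were 5.01%, 8.03% and 6.17% in smooth muscle and 9.32%, 21.0% and 17.3% in fibroblasts. Thinning left the libraries in the same order in both classes. Ranked by level, Thbs1 ran from fibroblasts of SHF AngII, CNC AngII and SHF baseline to smooth muscle of SHF AngII, CNC AngII and SHF baseline and last to macrophages of CNC AngII, and no neighbours in that order had overlapping intervals.

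The Thbs1 difference in smooth muscle sat in the deepest cells. Among cells of 20000 UMIs or more, Thbs1 stood at 56.8 CPM at baseline (155 cells), 170 CPM in SHF AngII (874 cells) and 119.8 CPM in CNC AngII (1303 cells). In cells of 5000 to 10000 UMIs the same levels were 53.2, 24.0 and 13.8 CPM, so the baseline was the highest there. From 10000 to 15000 UMIs they were 45.4, 50.2 and 25.3 CPM, and from 15000 to 20000 UMIs 65.4, 57.2 and 44.2 CPM. Over all cells of 5000 to 20000 UMIs the log2 ratio of SHF AngII over SHF baseline was -0.11 in place of 0.76, and with a stricter cell filter (at least 1000 genes, at most 5% mitochondrial UMIs) it was 0.25. Cells of 20000 UMIs or more were 6.86% of the smooth muscle class in SHF baseline and 18.8% in SHF AngII, and in SHF AngII they held 64.8% of its Thbs1 UMIs. Whether depth marks larger cells, a cell state or undetected doublets was not tested. In those deep cells of SHF AngII the summed fibroblast markers stood at 1598 CPM, against 1068 to 1427 CPM in the shallower bins and 1069 to 1388 CPM in the bins of SHF baseline. Spp1 stood at 370.5 CPM in them, against 5.83 to 53.7 CPM in the shallower bins of SHF AngII, and Mki67 at 13.6 against 0.208 to 0.996 CPM. Their summed smooth muscle markers stood at 57414 against 64128.5 to 68834 CPM. In CNC AngII the summed macrophage markers stood at 664 CPM in the deep cells and 99.1 to 258 CPM in the shallower bins.

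**Figure D2:**
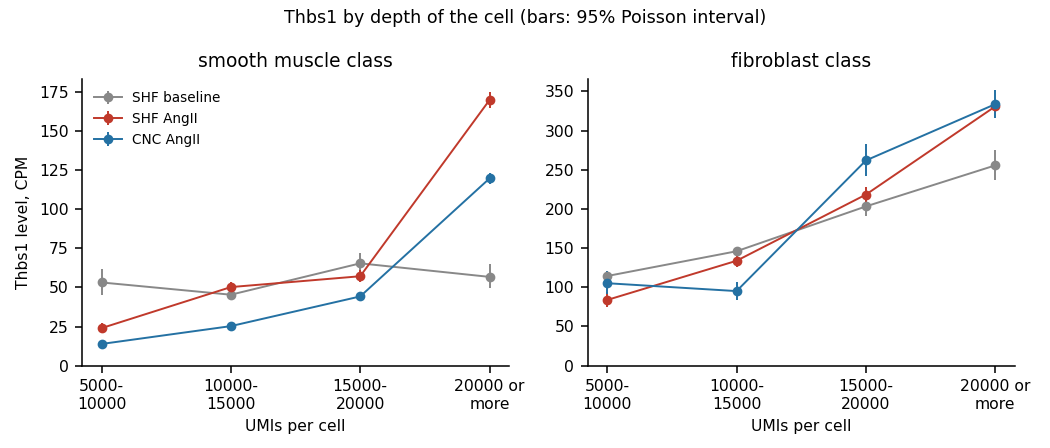
Thbs1 level (CPM) in smooth muscle and fibroblasts by UMIs per cell, with 95% Poisson intervals. In smooth muscle the libraries separate at 20000 UMIs or more (56.8, 170 and 119.8 CPM), whereas at 5000 to 10000 UMIs SHF baseline is the highest.

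Shares of cells gave a different picture from levels at like depth. In smooth muscle cells of 10000 to 15000 UMIs, 9.88% of SHF baseline (8.31 to 11.6%) and 17.4% of SHF AngII (15.6 to 19.4%) had a Thbs1 UMI. From 15000 to 20000 UMIs the shares were 14.9% (11.6 to 18.9%) and 26.2% (23.5 to 29.1%), but from 5000 to 10000 UMIs they were 14.0% (10.6 to 18.0%) and 9.34% (7.73 to 11.2%). In fibroblasts the share was higher in SHF AngII in each of the 4 depth bins. It was 15.2% against 21.4% from 5000 to 10000 UMIs, 18.4% against 30.1% from 10000 to 15000, 26.8% against 47.5% from 15000 to 20000 and 39.3% against 70.5% above that. The fibroblast levels in these bins were 114 against 83.8 CPM, 146 against 134 CPM, 203 against 218 CPM and 256 against 331 CPM. At like depth more fibroblasts of SHF AngII thus held Thbs1, but the summed level was higher only in the 2 deeper bins.

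A few fibroblasts of SHF baseline were rich in both Thbs1 and Comp. Chad encodes chondroadherin, a leucine-rich repeat protein of cartilage matrix. In SHF baseline, 77 fibroblasts (1.95%) had a Chad UMI, and they held 24.6% of the Thbs1 UMIs and 55.9% of the Comp UMIs of the class, at 1289 CPM of Thbs1 and 3011 CPM of Comp. In SHF AngII, 30 fibroblasts had a Chad UMI, with 361 CPM of Thbs1 and 1015 CPM of Comp, and in CNC AngII 3 had one. Without these cells Thbs1 stood at 114 CPM in SHF baseline and 248 CPM in SHF AngII, a log2 ratio of 1.12 (1.07 to 1.18). Without them and within 5000 to 20000 UMIs the levels were 116 and 164 CPM and the log2 ratio was 0.49. Under both restrictions together Thbs1 was thus higher in SHF AngII in fibroblasts, but not in smooth muscle (log2 ratio -0.12). The restriction by Chad does not act alike in the classes. In SHF baseline, cells with Chad held 24.6% of the Thbs1 UMIs of fibroblasts but 0% of those of smooth muscle. With Chad cells kept, the fibroblast ratio was -0.44, -0.12 and 0.10 from 5000 to 10000, 10000 to 15000 and 15000 to 20000 UMIs.

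**Figure D3:**
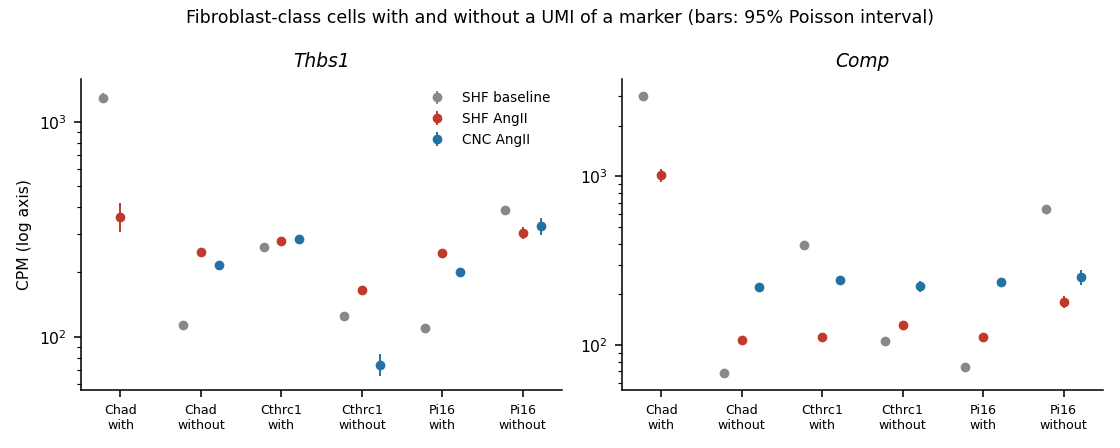
Level (CPM, log axis) of Thbs1 and Comp in fibroblasts with and without a UMI of Chad, Cthrc1 or Pi16, by library, with 95% Poisson intervals; groups under 20 cells are left out. Of the groups drawn, fibroblasts of SHF baseline with Chad are the highest for both genes (1289 and 3011 CPM), and without Chad SHF baseline is the lowest library for both.

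Within a class, Thbs1 differed between cells with and without a UMI of some markers. Among fibroblasts of SHF AngII, Thbs1 stood at 279 CPM in the 1646 cells with a UMI of Cthrc1, a gene of matrix-producing fibroblasts, and at 165 CPM in the 994 cells without. In CNC AngII it stood at 284 and 74.0 CPM, and in SHF baseline at 261 and 125 CPM. Thbs2 differed likewise, at 69.0 against 31.9 CPM in SHF AngII. In smooth muscle, Spp1 (osteopontin, a secreted matricellular protein) was found in 457 cells of SHF AngII and 1358 of CNC AngII, but in 10 at baseline. Thbs1 stood at 153 CPM with Spp1 and 78.2 CPM without in SHF AngII, and at 107 and 44.3 CPM in CNC AngII, whereas at baseline it stood at 30.5 CPM in the 10 cells with Spp1 and 52.2 CPM in those without. The cells with a marker UMI were also the deeper ones, with medians of 19749 against 12700.5 UMIs for Spp1 in SHF AngII smooth muscle and 19231 against 10656.5 for Cthrc1 in its fibroblasts.

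Smooth muscle cells with at least 10 Thbs1 UMIs numbered 165 in SHF AngII, 167 in CNC AngII and 48 at baseline. In SHF AngII their leading genes against cells with no Thbs1 UMI were Spp1 (696 against 60.7 CPM), Fbln2, a matrix glycoprotein (300.1 against 53.9 CPM), the chemokine gene Cxcl1 (126 against 18.2 CPM) and Ptgs2, cyclooxygenase-2 (287 against 54.9 CPM). In CNC AngII the leading genes again included Ptgs2 (274 against 61.6 CPM), Timp1 (758 against 183 CPM) and Vcam1 (184 against 33.4 CPM). In SHF baseline they were Fst, Mmp3 and Vcam1, with Spp1 at 0 UMIs in the 48 cells. These cells were chosen by their Thbs1 count, which favours deep cells: their median was 26480 UMIs in SHF AngII, against 12131 in cells with none. Myh11, which is also the gate gene, stood at 1182 CPM in them against 2037 CPM.

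CNC AngII and SHF AngII share their gene list, so their comparison is free of the difference in annotation. In smooth muscle Thbs1 stood at 61.8 CPM in CNC AngII (60.2 to 63.4, 5925 UMIs) against 88.9 CPM, a log2 ratio of -0.52 (-0.58 to -0.47). It was lower in CNC AngII in each of the 4 depth bins, with log2 ratios from -0.96 to -0.36. In fibroblasts it stood at 216 against 249.6 CPM (log2 ratio -0.21, -0.27 to -0.15), but by depth it was lower only from 10000 to 15000 UMIs (-0.49), and the ratio was 0.32 from 5000 to 10000, 0.26 from 15000 to 20000 and 0.01 above that. Macrophage markers moved with this comparison: summed over the 7 markers they stood at 339 CPM in smooth muscle of CNC AngII and 1.40 CPM in that of SHF AngII. Their part in the result was not tested.

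Thbs2, like Thbs1, forms trimers but does not activate latent TGF-beta. In smooth muscle it stood at 24.3 CPM in SHF baseline (22.6 to 26.1), 19.5 in SHF AngII (18.5 to 20.6) and 20.1 in CNC AngII (19.2 to 21.0), with overlapping intervals for the 2 AngII libraries. In fibroblasts it stood at 65.7 (63.2 to 68.4), 59.5 (57.2 to 61.8) and 68.6 CPM (63.9 to 73.6), where the interval of SHF AngII overlapped neither other. Log2 ratios of SHF AngII over SHF baseline were -0.30 (-0.45 to -0.18) in smooth muscle and -0.14 (-0.22 to -0.07) in fibroblasts, and TMM scaling turned the latter to 0.14. Those of CNC AngII over SHF AngII were 0.04 (-0.06 to 0.14) and 0.20 (0.09 to 0.32). By depth, the fibroblast ratio of SHF AngII over SHF baseline was -0.62, -0.80, 0.02 and 0.59 from the shallowest to the deepest bin. That of CNC AngII over SHF AngII was 0.60, 0.74, 0.40 and -0.06. No smooth muscle cell held 10 Thbs2 UMIs, and the richest held 7.

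Thbs3 was spread over the most even range of cells: in each of the 6 combinations of the large classes and libraries, 1% of the cells held 7.39 to 11.8% of its UMIs. In smooth muscle it stood at 19.4 CPM in SHF baseline (17.8 to 21.0), 20.6 in SHF AngII (19.5 to 21.7) and 17.6 in CNC AngII (16.8 to 18.5), and the interval of SHF baseline overlapped both others. In fibroblasts it was highest in SHF baseline, at 67.6 CPM (65.0 to 70.2), then 47.6 in SHF AngII (45.6 to 49.7) and 39.9 in CNC AngII (36.3 to 43.7). The log2 ratio of SHF AngII over SHF baseline was 0.08 (-0.05 to 0.23) in smooth muscle and -0.50 (-0.59 to -0.42) in fibroblasts, and the fibroblast ratio was below 0 under every alternative and in each of the 4 depth bins (-0.50 to -0.34). Against 10.7% of genes past 2-fold lower in that comparison, Thbs3 was within 2-fold. The ratio of CNC AngII over SHF AngII was -0.21 in smooth muscle and -0.25 in fibroblasts.

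Thbs4, a pentamer abundant in tendon and in the stressed heart, had 1, 6 and 55 UMIs in smooth muscle, 34 of the 55 in 1 cell of CNC AngII. In fibroblasts it stood at 3.83 CPM in SHF baseline (145 UMIs), 36.6 in SHF AngII (1644 UMIs) and 21.1 in CNC AngII (242 UMIs). Only 27, 65 and 22 fibroblasts had a UMI, or 0.685%, 2.46% and 2.61% (0.319%, 1.22% and 1.55% after thinning). The fold of SHF AngII over SHF baseline was 9.57, with a log2 ratio of 2.96, past 2-fold. Thbs4 reached the minimum of 10 CPM only through SHF AngII, where it is high, so nothing is read from this against the 4.64% of genes past 2-fold higher. In SHF AngII, 4 cells held at least 50% of the UMIs and the richest held 363. Leaving out the 1% of cells of each library richest in Thbs4 left 2.21 CPM in SHF AngII and 0 UMIs in SHF baseline, so no fold is given for that setting. The ratio between CNC AngII and SHF AngII was -0.77, and 0.29 without the richest 1% (2.93 against 2.21 CPM).

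The 29 fibroblasts of SHF AngII with at least 10 Thbs4 UMIs had Cilp, a cartilage intermediate layer protein, as their leading gene (1695 against 129 CPM in cells without Thbs4). Angptl1 (356 against 20.3 CPM), Igfbp3 (183 against 14.0 CPM) and C1qtnf3 (93.9 against 3.11 CPM) followed. They also held more of the sister genes, with Thbs1 at 845 against 235 CPM and Thbs2 at 192 against 56.9 CPM, whereas Comp stood at 140.1 against 117 CPM. Chad stood at 27.7 CPM and Scx, a tendon transcription factor, at 55.4 CPM in them. They were also deeper, with a median of 21545 UMIs against 15414 in cells without Thbs4. Of the Thbs4-positive fibroblasts of SHF baseline, SHF AngII and CNC AngII, 85.2%, 67.7% and 63.6% also had a Thbs1 UMI, against 16.02%, 44.1% and 37.1% of the class.

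**Figure D4:**
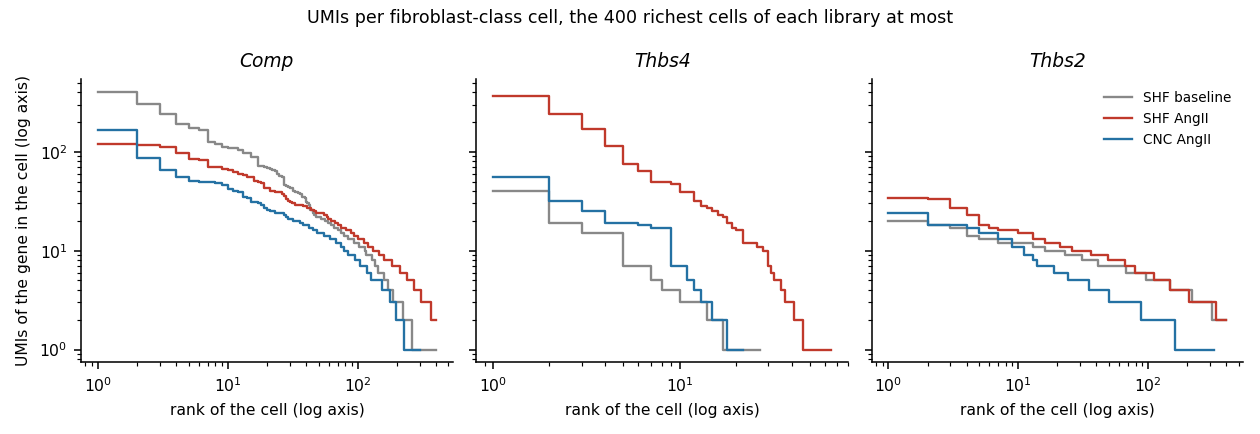
UMIs of Comp, Thbs4 and Thbs2 in each fibroblast against the rank of the cell, both on log axes, for at most 400 cells of a library. The richest cell held 404 Comp UMIs in SHF baseline and 363 Thbs4 UMIs in SHF AngII, whereas for Thbs2 the richest held 20, 34 and 24.

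Comp differed between classes more than any other member that both classes express. In fibroblasts it stood at 150.4 CPM in SHF baseline (5699 UMIs), 117 in SHF AngII (5250 UMIs) and 238 in CNC AngII (2725 UMIs). Shares of fibroblasts with a Comp UMI ran otherwise, at 10.2% (9.30 to 11.2%), 24.7% (23.0 to 26.4%) and 35.8% (32.5 to 39.1%), and 6.32%, 11.1% and 18.4% after thinning. In SHF baseline 1% of the cells held 65.4% of the UMIs, against 32.0% in SHF AngII and 22.6% in CNC AngII. SHF AngII over SHF baseline gave a log2 ratio of -0.36 (-0.42 to -0.31). Without cells with Chad the levels were 68.2 and 108 CPM and the ratio was 0.65 (0.59 to 0.73), so the direction turned on 77 and 30 cells.

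The ratio of CNC AngII over SHF AngII for Comp in fibroblasts was 1.02 (0.96 to 1.09), past 2-fold, where 0.457% of 7215 genes were past 2-fold higher and 0.152% lower. It was 1.04 without cells with Chad (222 against 108 CPM), 1.21 without the richest 1% and between 0.82 and 1.21 over every alternative. By depth it was -0.06 from 5000 to 10000 UMIs, 0.92 from 10000 to 15000, 1.54 from 15000 to 20000 and 0.71 above that. In CNC AngII the 3 fibroblasts with Chad held 6.90% of the Comp UMIs.

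In smooth muscle, Comp stood at 11.0 CPM in SHF baseline (324 UMIs), 19.5 in SHF AngII (1357 UMIs) and 9.01 in CNC AngII (864 UMIs), yet 5.09%, 3.85% and 6.41% of the cells had a UMI, and 1.15%, 1.12% and 1.47% after thinning. A single cell of SHF AngII held 415 UMIs, and 3 cells held at least 50% of the total. The log2 ratio of SHF AngII over SHF baseline was 0.78 (0.66 to 1.01), and -0.43 without cells with Chad. The ratio of CNC AngII over SHF AngII was -1.04 (-1.24 to -0.99), past 2-fold, where 0.355% of 6765 genes were past 2-fold lower and 0.443% higher, and it was 0.17 without cells with Chad. Comp reached the minimum of 10 CPM there only through SHF AngII, where it is high, so nothing is read from that share. The 13 smooth muscle cells of SHF AngII with at least 10 Comp UMIs held 1835 CPM of Chad, 180 CPM of Col2a1 and 2630 CPM of Dcn beside 19136 CPM of Acta2, the smooth muscle actin. Levels of 2 kinds of marker in 1 barcode also arise from 2 cells captured together, which was not tested.

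**Figure D5:**
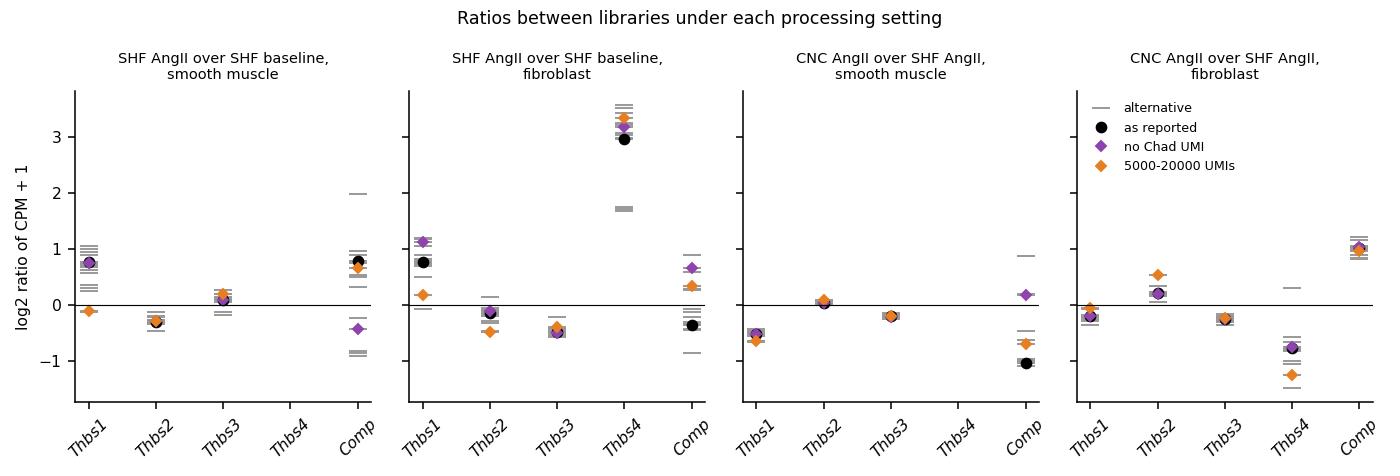
Log2 ratio of CPM + 1 for each member in the 4 comparisons: black points are the reported values, grey dashes each alternative processing, purple diamonds cells without Chad and orange diamonds cells of 5000 to 20000 UMIs. Thbs2 in fibroblasts runs from -0.49 to 0.14 and Thbs3 in smooth muscle from -0.19 to 0.26 for SHF AngII over SHF baseline, Thbs1 in smooth muscle falls from 0.76 to -0.11 in the depth window, and 3 of the 4 Comp ratios lie on both sides of 0; Thbs4 in smooth muscle is left out.

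Summed over the 5 genes, the family stood at 107, 149 and 109 CPM in smooth muscle of SHF baseline, SHF AngII and CNC AngII, and at 434, 510.2 and 583 CPM in fibroblasts. The log2 ratio of SHF AngII over SHF baseline was 0.47 (0.42 to 0.53) in smooth muscle and 0.23 (0.20 to 0.26) in fibroblasts. The ratio of CNC AngII over SHF AngII was -0.44 (-0.49 to -0.41) and 0.19 (0.15 to 0.23). The sums hide members that differ in direction, and they share the limits of Thbs1 and Comp above: in cells of 5000 to 20000 UMIs the smooth muscle ratio of SHF AngII over SHF baseline was 0.02, and with fibroblasts taken by Lum the fibroblast ratio was -0.34. The share of cells with any thrombospondin UMI was 49.5%, 55.5% and 52.6% in smooth muscle and 62.8%, 80.0% and 81.0% in fibroblasts.

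Many thrombospondin UMIs lay outside the classes. In SHF baseline, 25.9% of the kept cells met no gate, and they held 53.9% of the library's Thbs1 UMIs, 53.4% of Comp and 67.6% of Thbs4. Of these, 1738 cells had no Pdgfra UMI and 0 to 4 of Myh11, with 677 CPM of Thbs1, 544 of Comp, 270.03 of Chad and 14590 of Dcn. Their median depth was 5639 UMIs, against 9534 in the fibroblast class. The unclassified cells of SHF AngII (21.5%) held 24.9% of its Thbs1 UMIs and those of CNC AngII (11.9%) 22.3%. Taking fibroblasts by Lum (at least 3 UMIs, Myh11 at most 2) gave a Thbs1 log2 ratio of -0.09 for SHF AngII over SHF baseline in place of 0.76. The higher fibroblast level of Thbs1 in SHF AngII therefore depends on which cells count as fibroblasts.

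A few receptor genes were past 2-fold, in both directions, and Lrp1, which clears thrombospondin complexes, was lower in both classes. Of the 18 receptor genes fixed for description, 14 reached the minimum in smooth muscle of SHF AngII over SHF baseline. Of these, 2 were past 2-fold higher and 1 lower, beside 2.86% and 3.53% of all genes. Their median log2 ratio was -0.09, beside -0.10 over all genes. Itga5, the fibronectin receptor subunit, was at 259.9 against 111 CPM (1.22) and Vldlr at 57.3 against 133 CPM (-1.20). Cd47 was at 83.4 against 123 CPM (-0.56) and Lrp1 at 134 against 169.6 CPM (-0.34). Cd36 stood below 1 CPM in both classes of both SHF libraries. In fibroblasts 1 of 13 receptor genes was past 2-fold higher (Itga5, 1.27) and 1 lower (Vldlr, -2.29), beside 4.64% and 10.7% of all genes. The median there was -0.14, beside -0.21 over all genes. Cd47 (-0.77) and Lrp1 (-0.54) were again lower.

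All lists are read beside the same comparison over all genes, where 2.86% were past 2-fold higher and 3.53% lower in smooth muscle (median -0.10) and 4.64% higher and 10.7% lower in fibroblasts (median -0.21). The latent TGF-beta list had 0 of 11 genes past 2-fold higher and 2 lower in smooth muscle (median 0.01), and 1 of 12 higher and 3 lower in fibroblasts (median -0.61). Ltbp4, which holds latent TGF-beta in elastic matrix, was at 135 against 421 CPM in smooth muscle (-1.63) and 191 against 825 CPM in fibroblasts (-2.10). Ltbp2, which is also on the TGF-beta target list and counted there again, was higher in fibroblasts (1.09). The lists share some other genes too, so their counts are not separate. Of the TGF-beta target list, 2 of 9 were past 2-fold higher and 0 lower in smooth muscle (median 0.59), and 3 of 10 higher and 1 lower in fibroblasts (median 0.41). Timp1, a metalloprotease inhibitor, was at 277 against 23.3 CPM in smooth muscle and 3267 against 202 CPM in fibroblasts. Tgfbi, a matrix adhesion protein, had a log2 ratio of -1.74 in fibroblasts.

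Among the other matricellular genes, beside the same shares of all genes (2.86% higher and 3.53% lower in smooth muscle, 4.64% and 10.7% in fibroblasts), 4 of 12 were past 2-fold higher and 1 lower in smooth muscle (median 0.15), and 3 of 11 higher and 2 lower in fibroblasts (median 0.08). Spp1 (143 against 0.541 CPM) and Tnc, tenascin C (58.3 against 8.16 CPM), led in smooth muscle, and Ccn3 (357 against 47.1 CPM) in fibroblasts, whereas Tnxb was lower in both (-1.58 and -1.13). Of the partners of Comp, 1 of 7 was higher and 4 lower in fibroblasts (median -1.40). Col12a1 was at 159 against 45.6 CPM, and Chad (2.14 against 46.1 CPM), Fmod, Matn2 and Matn4 were lower. In smooth muscle 1 of 4 was higher (Acan, 1.92) and 2 lower. The protease list had 0 of 7 genes past 2-fold in smooth muscle and 1 of 8, lower, in fibroblasts (Mmp2, -1.29). The YAP target list had 1 of 9 higher in smooth muscle (Ankrd1, 1.15) and 1 of 8 lower in fibroblasts (Ccn1, -1.15).

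The immediate early list, genes induced within minutes by stress and by tissue digestion, was lower in SHF AngII while Thbs1 was higher. Its summed level was 15125 CPM in smooth muscle of SHF baseline and 9372 in SHF AngII, and 20937 and 10917 CPM in fibroblasts. Of its genes, 1 of 18 was past 2-fold higher and 3 lower in smooth muscle (median -0.66), beside 2.86% and 3.53% of all genes. In fibroblasts 0 of 17 were higher and 6 lower (median -0.87), beside 4.64% and 10.7% of all genes. In fibroblasts with at least 10 Thbs1 UMIs against those with none, the list stood at 20819 and 20685 CPM at baseline, 12635 and 10321 in SHF AngII and 9715 and 10499 in CNC AngII. In smooth muscle it stood at 16005 and 14945 CPM at baseline, 8779 and 9368 in SHF AngII and 7715 and 8593 in CNC AngII, so the libraries did not share a direction in these 2 classes. In macrophages of CNC AngII the list rose with Thbs1. It stood at 5825 CPM in 1565 cells without Thbs1, 8236 in 181 cells with 1 to 9 UMIs and 10972.5 in 18 cells with at least 10. The part of digestion in the Thbs1 levels was not tested. Between the 2 AngII libraries, each of these lists but 2 had 0 genes past 2-fold in both classes. The exceptions were the matricellular list (Smoc2 higher in smooth muscle, Spp1 in fibroblasts) and the partners of Comp in smooth muscle (Acan higher, Col14a1 lower). Over all genes of that comparison, 0.443% were past 2-fold higher and 0.355% lower in smooth muscle, and 0.457% and 0.152% in fibroblasts. At shares this small, a count of 0 in a short list says nothing about that list.

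Likeness of pattern was read over the 7 profiles of at least 50 cells (both large classes in 3 libraries and macrophages of CNC AngII), among 2618 genes. The points share libraries and classes, so this is a description. For Thbs1 the nearest genes were Col12a1 and Mmp3 (Pearson r of 0.99 each), Ssr1 (0.987), Rer1 (0.985) and Ostc (0.985). For Thbs2 they were Prrx1 (0.998), Morf4l2, Itgav, Col3a1 and Dnajc10 (0.994), and for Thbs3 Htra3 (0.999), Adamts2, Plxdc2, Aspn and Fndc3b (0.994). For Comp they were Naxd (0.988), Bcap31, Bok, Csf1 and Clec11a (0.983). Thbs4 was under the minimum level for this.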

How the data were processed

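Raw UMI counts per gene and cell barcode, deposited by the authors for 3 samples, were used with no normalisation of theirs. Per the submitters' processing notes, mm10, fastp, STAR 2.5 and HTSeq 0.6.1 are named, with no role given here. The AngII files list 32285 genes each and the baseline file 18760, with older names (518 matched through a synonym, 13 names occurring more than once left out, 18112 genes in common), so differences from baseline include the making of the tables. Cells with at least 500 genes, at most 10% mitochondrial UMIs and no Scrublet doublet call (scanpy 1.11.5; 207, 192 and 279 cells in SHF baseline, SHF AngII and CNC AngII) were kept. UMIs were summed over a class in a library and divided by its total (CPM). Ratios are log2((CPM + 1)/(CPM + 1)). Their intervals are exact conditional binomial ones without the added CPM, those of levels exact Poisson and those of shares exact Clopper-Pearson. UMIs of 1 cell are not independent, so the intervals are too narrow for genes held by few cells. The share of genes past 2-fold covers genes with a mean of at least 10 CPM. The count was tried only on simulated independent Poisson counts, without clumping in few cells or spread between libraries. That trial therefore says nothing on genes held by few cells or on differences between libraries. With 1 library per group no test was run. Named genes are the members, the genes of the lists described, the 5 nearest by likeness, and leading genes of cells rich in a member, the last chosen after their values were seen. The members, lists and tests were chosen with earlier results of these data known. TMM (edgeR 4.0.16, R 4.3.3) and 16 other settings were tried as alternatives. Some genes counted in the lists are not reported here by name.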

Additional observations from a re-analysis of the deposited data

Results flagged for a closer look

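Comp differed in opposite directions in the 2 large classes. For SHF AngII over SHF baseline its log2 ratio was 0.78 in smooth muscle and -0.36 in fibroblasts, and that of CNC AngII over SHF AngII was -1.04 in smooth muscle and 1.02 in fibroblasts. With 1 library per group, whether the classes differ was not tested. Without cells with a Chad UMI the ratios were -0.43 and 0.65, and 0.17 and 1.04.

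Thbs1 was high in a few cells with endothelial markers, taken from all kept cells whether or not they met a class gate. The 33 cells of SHF AngII with at least 3 of 5 endothelial markers (Pecam1, Cdh5, Vwf, Kdr, Tie1) held 1444 CPM of Thbs1 (interval 1330 to 1564), and 27 of them had a UMI. The 65 such cells of SHF baseline held 1030 CPM (952 to 1114), and the 40 of CNC AngII 749.9 CPM (657 to 852).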

How the results depend on the processing

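Log2 ratios are given here. No paired analysis was possible because each group had 1 library, so no replicate could be left out either. Summed over the 5 genes, the ratio of SHF AngII over SHF baseline in smooth muscle was 0.47 as reported. It was 0.36 with no cell filter, -0.0035 with a stricter one, 0.34 with doublets kept, 0.021 in cells of 5000 to 20000 UMIs, 0.16 as a mean of per-cell CPM, 0.21 thinned, 0.65 by TMM, 0.64 with free RNA subtracted, 0.37 without the richest 1% of cells, 0.35 without cells with Chad and -0.11 without them in that depth window. In fibroblasts, reported as 0.23, it was 0.31 with a stricter cell filter, 0.20 with doublets kept, 0.51 with stricter gates, -0.34 with gates by other genes, 0.34 as a mean of per-cell CPM, 0.35 thinned, 0.29 without mitochondrial and ribosomal genes, 0.51 by TMM, 0.57 without the richest 1%, 0.65 without cells with Chad and 0.46 without them in the window. For CNC AngII over SHF AngII in smooth muscle (-0.44), it was -0.56 with a stricter cell filter, -0.25 with other gates, -0.40 in the window, -0.36 as a per-cell mean, -0.33 thinned, -0.39 with free RNA subtracted, -0.29 without the richest 1%, -0.33 without cells with Chad and -0.28 without them in the window. In fibroblasts (0.19) it was 0.15 with other gates, 0.33 in the window, 0.13 thinned and 0.32 without cells with Chad in the window.

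Of single members, Thbs1 in SHF AngII over SHF baseline turned to -0.11 in smooth muscle in the window, to -0.12 there without cells with Chad, and to -0.086 in fibroblasts with other gates. Thbs2 in fibroblasts turned to 0.14 by TMM, whose shift of all ratios accounts for it. Thbs4 in fibroblasts of CNC AngII over SHF AngII turned to 0.29 without the richest 1%. Comp in smooth muscle of SHF AngII over SHF baseline turned to -0.86 with a stricter filter, -0.91 with other gates, -0.82 without the richest 1%, -0.43 without cells with Chad and -0.24 without them in the window. Comp in fibroblasts turned to 0.33 in the window, 0.25 as a per-cell mean, 0.29 thinned, 0.59 without the richest 1%, 0.65 without cells with Chad and 0.88 without them in the window. Comp in smooth muscle of CNC AngII over SHF AngII turned to 0.86 with other gates, 0.87 without the richest 1%, 0.17 without cells with Chad and 0.19 without them in the window. Of 340 alternative values of 20 member ratios, 228 stayed within the reported interval, 92 moved out of it and 20 turned from a ratio whose interval excludes 0. Among ratios whose interval includes 0, Thbs3 in smooth muscle of SHF AngII over SHF baseline (0.08) was -0.19 thinned and -0.13 with a stricter cell filter, and Thbs4 there (0.07) reached -0.92 with doublets kept. The cause of these changes was not tested, and alternatives that leave out the richest cells or cells with Chad do not test it.

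The share of genes past 2-fold higher and lower in SHF AngII over SHF baseline was 1.73% and 1.69% in smooth muscle with 10 CPM added, and the lower share in fibroblasts 4.91%. In CNC AngII over SHF AngII the higher share in smooth muscle was 1.31% with no minimum, 0.0824% at 50 CPM or more and 0.237% with 10 CPM added, and the lower share 0.643% with no minimum. In fibroblasts, with no minimum, they were 0.889% and 0.252%, and the lower share 0.0416% with 10 CPM added. The alternatives that leave out the richest cells, or those with Chad, were chosen after seeing the data. Depth limits Thbs4 in smooth muscle, where it had 1, 6 and 55 UMIs.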

Other observations

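Among unclassified cells of SHF baseline, those rich in Thbs1 also held more Chad and Comp. The 201 unclassified cells with at least 10 Thbs1 UMIs, chosen by that count, held 909 CPM of Chad against 6.96 CPM in those with none, 1686 against 63.7 CPM of Comp, 309 against 14.8 CPM of Scx, the tendon transcription factor, and 907 against 32.6 CPM of Prg4, the lubricating proteoglycan of joints. In SHF AngII the 170 such cells held 42.3 CPM of Chad and 258 CPM of Comp, and their leading genes included Ctla2a, Edn1 (endothelin 1) and Emcn, an endothelial sialomucin, at 56.5 against 3.04 CPM. Fibroblasts of SHF AngII with at least 10 Thbs1 UMIs led in Ddah1 (238 against 43.0 CPM), Tnc (46.1 against 2.14 CPM), Hbegf (90.1 against 13.5 CPM), Lif (56.3 against 6.38 CPM) and Ccl2 (946 against 260.0 CPM). These genes were chosen after their values were seen.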
